A study of Homo sapiens with 2 samples.

Results

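The genes described here make nonessential amino acids or link them to the citric acid cycle: ASNS, ASS1, ASL, PCK2, GPT2, GOT1, GOT2, PYCR1 and ALDH18A1. Their transcripts were measured in cultures of SW48, a cell line from a human colorectal tumour. The treated culture was exposed for 6 days to 20 µM AKBA (acetyl-11-keto-β-boswellic acid), which is a triterpenoid found in frankincense resin. For the control, the treatment protocol names dimethyl sulfoxide at 0.1%, while the source name calls those cells non-treated, so the vehicle and the compound cannot be told apart here. Each group was 1 Illumina bead array, so the differences have no replicate check, none was tested, and higher and lower describe these 2 arrays. All probes of the array that the platform's annotation assigns to a member symbol, or to an older name of it, were taken, and each is given separately. They were 17 probes of 8 genes, among 18852 named genes in all, and no probe here carried the name of GPT2, the mitochondrial alanine transaminase. The members were chosen with the values of this comparison in view, so their differences are a description and support nothing further.

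Nonessential amino acids are built from intermediates of glycolysis and the citric acid cycle, with nitrogen that transaminases move from glutamate. Asparagine synthetase joins the amide nitrogen of glutamine to aspartate, and argininosuccinate synthase and lyase turn citrulline and aspartate into arginine. Proline is made from glutamate by the enzymes of ALDH18A1 and PYCR1. When cells run short of amino acids, the kinase GCN2 phosphorylates the initiation factor eIF2, the transcription factor ATF4 is made in larger amounts, and genes such as ASNS are transcribed more. ATF4 pairs with C/EBP proteins on a composite DNA element whose core reads TTNCATCA.

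The promoter windows of ASNS, PCK2 and ASS1 are shown because these genes had the largest differences, and that of GOT1 because it holds the same core as ASNS. All are RefSeq sequence of build GRCh38.p14, read 5′ to 3′ on the strand of the gene around its annotated start. The window of ASNS lies at chr7:97872359-97872658 on the minus strand, that of PCK2 at chr14:24094061-24094360 on the plus strand, that of ASS1 at chr9:130444457-130444756 on the plus strand and that of GOT1 at chr10:99430575-99430874 on the minus strand. Capitals mark matches on either strand to TTNCATCA, the core above, and to GTTACA, the second nutrient-sensing element known in the ASNS promoter.
ASNS: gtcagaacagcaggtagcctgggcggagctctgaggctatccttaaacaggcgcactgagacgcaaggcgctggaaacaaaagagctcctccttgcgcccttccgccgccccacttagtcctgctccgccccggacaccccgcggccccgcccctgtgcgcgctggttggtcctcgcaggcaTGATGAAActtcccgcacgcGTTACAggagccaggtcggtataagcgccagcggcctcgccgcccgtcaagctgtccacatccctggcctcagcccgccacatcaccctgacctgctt
PCK2: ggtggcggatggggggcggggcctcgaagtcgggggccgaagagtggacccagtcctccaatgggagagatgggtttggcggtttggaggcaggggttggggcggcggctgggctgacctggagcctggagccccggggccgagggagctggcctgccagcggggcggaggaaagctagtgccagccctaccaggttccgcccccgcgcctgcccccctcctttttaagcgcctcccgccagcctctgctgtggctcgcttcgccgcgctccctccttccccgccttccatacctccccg
ASS1: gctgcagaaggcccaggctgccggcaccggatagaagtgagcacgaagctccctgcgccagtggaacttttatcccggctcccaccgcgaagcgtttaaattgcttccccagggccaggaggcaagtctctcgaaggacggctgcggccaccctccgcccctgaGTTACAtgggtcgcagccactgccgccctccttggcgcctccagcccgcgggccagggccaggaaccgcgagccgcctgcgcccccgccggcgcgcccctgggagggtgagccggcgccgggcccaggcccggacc
GOT1: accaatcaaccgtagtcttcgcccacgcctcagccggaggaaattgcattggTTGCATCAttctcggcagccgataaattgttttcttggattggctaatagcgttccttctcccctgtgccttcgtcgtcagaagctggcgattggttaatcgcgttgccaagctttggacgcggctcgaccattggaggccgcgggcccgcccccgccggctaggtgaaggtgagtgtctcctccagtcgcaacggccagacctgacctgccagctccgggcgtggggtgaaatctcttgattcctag
In the ASNS window TTNCATCA was matched on the opposite strand, as TGATGAAA, starting at position -68 from the annotated start, and GTTACA followed at -48. GOT1 held TTGCATCA at -198 and ASS1 held GTTACA at -86. The PCK2 window held neither. Of 35116 promoter windows of the same length in the table, 3.62% held TTNCATCA and 6.66% held GTTACA, and the motifs do not overlap in any window shown. Among the 9 windows of 7 members in the table, 2 held TTNCATCA and 2 held GTTACA. The second windows of ASNS and ASS1, which start at other annotated transcript starts, and those of ASL, GOT2 and ALDH18A1 held neither. A match describes these letters and does not show that a factor bound there in SW48 cells, which these arrays do not measure.

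The AKBA array was dimmer than the control array. The mean bead signal was 365 on the AKBA array and 425 on the control array, with medians of 78.3 and 80.9. At a detection p under 0.01 against the negative control beads, the arrays detected 11329 probes (AKBA) and 12389 probes (control) of 48803, and the lowest detected signals were 141 and 138. Signals are printed as deposited, while folds and log2 differences (AKBA minus control) are taken after background correction and quantile normalization, which evens out that difference in brightness. Of 10 markers of colorectal epithelium, 6 were detected on both arrays, among them EPCAM, CDH1 and CDX2, and KRT20, CDH17, VIL1 and LGALS4 were detected on neither. None of 6 fibroblast markers was detected. Each marker of these cell types is given by a single probe, although some have more. Of 4 leukocyte markers with a probe only LYZ was, with signals of 150 (AKBA) and 147 (control), close to the detection limit. Summed over each list's probes, fibroblast markers gave 441 (AKBA) and 425 (control) and leukocyte markers 425 (AKBA) and 410 (control), sums over probes of which only that of LYZ was detected. Epithelial markers summed to 14673 (AKBA) and 15638 (control), and hepatocyte markers, of which only CPS1 was detected, to 1082 (AKBA) and 1401 (control).

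**Figure D1:**
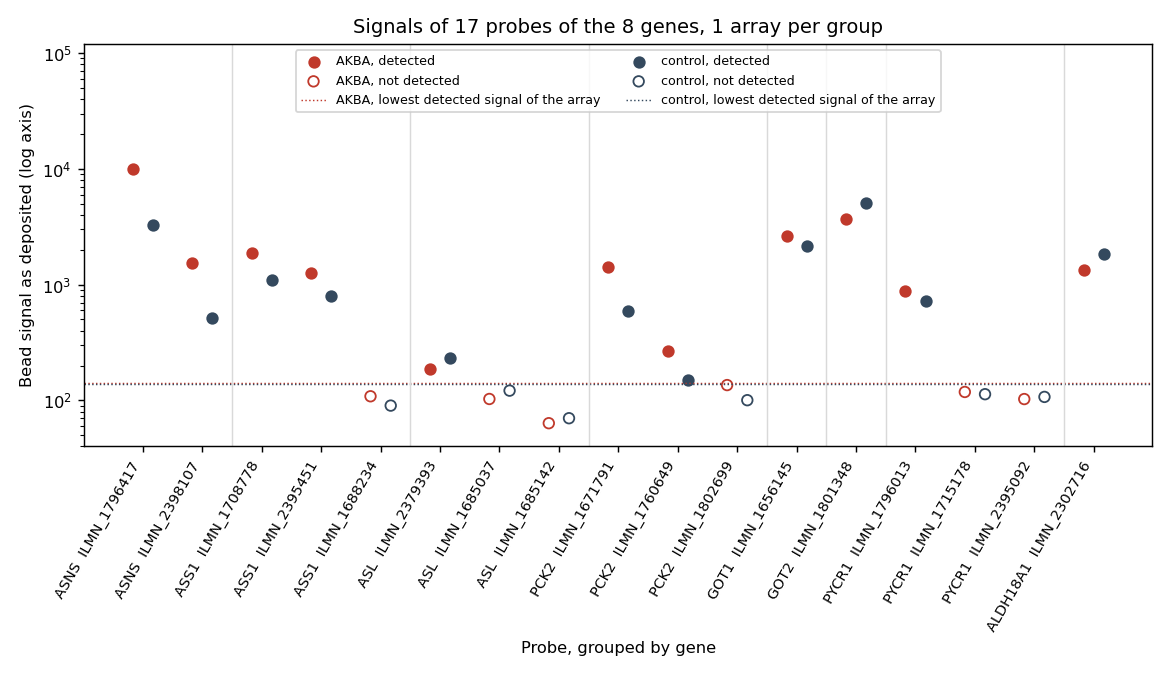
Bead signal as deposited (log axis) of each probe on the AKBA array (red, left of each pair) and the control array (dark, right), with open circles for probes not detected and dotted lines at the lowest detected signal of each array (141 and 138). The detected probes of ASNS, ASS1 and PCK2 are brighter on the AKBA array, those of ASL, GOT2 and ALDH18A1 on the control array.

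Of the 17 probes, 11 were detected on both arrays and 6 on neither, and each of the 8 genes had at least 1 detected probe. Of the 11 probes, 8 were higher on the AKBA array and 3 lower. Probes of ASNS, ASS1 and PCK2 passed 2-fold, 6 in all, and with PYCR1 and GOT1 8 passed 1.5-fold, while none was lower by 1.5-fold or more. As deposited, the ratios of AKBA to control signal of these probes were 3.06 and 2.97 for ASNS and 2.41 and 1.76 for PCK2. They were 1.72 and 1.59 for ASS1 and 1.22 for both PYCR1 and GOT1, so some calls rest on the normalization. Among all 10902 named probes detected on at least 1 array, 0.541% were higher by 2-fold or more and 3.17% by 1.5-fold or more, and 0.358% and 4.37% were lower by those folds. The share above 0 was 47.9%. The median difference of the 11 probes was 1.05 on the log2 scale, against -0.01 for all detected probes. Since these genes were picked on this contrast, nothing is read from the comparison of these shares.

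ASNS, asparagine synthetase, had the largest difference among the members. Its probe ILMN_1796417 read 9925 on the AKBA array and 3243 on the control array, and its probe ILMN_2398107 read 1525 on the AKBA array and 514 on the control array. Both probes were detected with a detection p of 0 on each array and were higher with AKBA. After normalization the first was 3.67-fold higher (log2 difference 1.88) and the second 4.09-fold higher (2.03). Of the 9854 named probes detected on both arrays, 3 stood above ILMN_1796417 and 1 above ILMN_2398107. By the brighter probe, ASNS was at rank 3 of 7930 genes detected on both arrays.

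PCK2, the mitochondrial phosphoenolpyruvate carboxykinase, turns oxaloacetate into phosphoenolpyruvate and so lets carbon of glutamine and other amino acids reach serine and glycerol synthesis. Its probe ILMN_1671791 read 1422 on the AKBA array and 589.9 on the control array, a 3.27-fold higher normalized signal (log2 difference 1.71). Its probe ILMN_1760649 had 266 on the AKBA array and 151 on the control array, a 2.83-fold higher normalized signal (1.5). The control signal of that probe, with a detection p of 0.00791, was close to the lowest detected there, so the size of its difference is uncertain. It ranged from 1.05 with no background correction to 1.6 with the authors' processed values. The last PCK2 probe, ILMN_1802699, had signals of 136 (AKBA) and 100.4 (control) with detection p of 0.0105 and 0.0448. It missed the detection limit on both arrays, so no fold is given, though its AKBA value lay just outside. By annotation, ILMN_1671791 belongs to transcript NM_004563 and the other PCK2 probes to NM_001018073. PCK1, the cytosolic form of the same enzyme, was detected on neither array by its brightest probe, with signals of 63.2 (AKBA) and 81.7 (control).

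ASS1, argininosuccinate synthase, makes argininosuccinate from citrulline and aspartate and is the limiting enzyme when cells make their own arginine. Its probe ILMN_1708778 read 1877 on the AKBA array and 1092 on the control array, and ILMN_2395451 had 1268 on the AKBA array and 795 on the control array. Both were higher with AKBA, by 2.21-fold (log2 difference 1.14) and 2.08-fold (1.05). The remaining ASS1 probe, ILMN_1688234, was detected on neither array, with signals of 108 (AKBA) and 90.1 (control), although the annotation names the transcript NM_000050 for it and for ILMN_1708778 alike. ASS1 stood at rank 18 of 7930 genes detected on both arrays.

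ASL, argininosuccinate lyase, catalyses the next step and releases arginine and fumarate. Its detected probe, ILMN_2379393, read 188 on the AKBA array and 231 on the control array, with a log2 difference of -0.06. The ASL probes ILMN_1685037 and ILMN_1685142 were detected on neither array, at 103 and 63.5 (AKBA) and at 121 and 70.1 (control). The enzymes that act in sequence thus stood apart on these arrays, with the log2 difference of ASS1 above that of ASL by 1.20, and by 1.14 to 1.26 over 6 ways of processing. That gap says that the signals differed unequally, not that ASL was the same in both cultures. For ASL it rests on the only detected probe, which was dim on both arrays, so the size of the gap is uncertain.

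**Figure D2:**
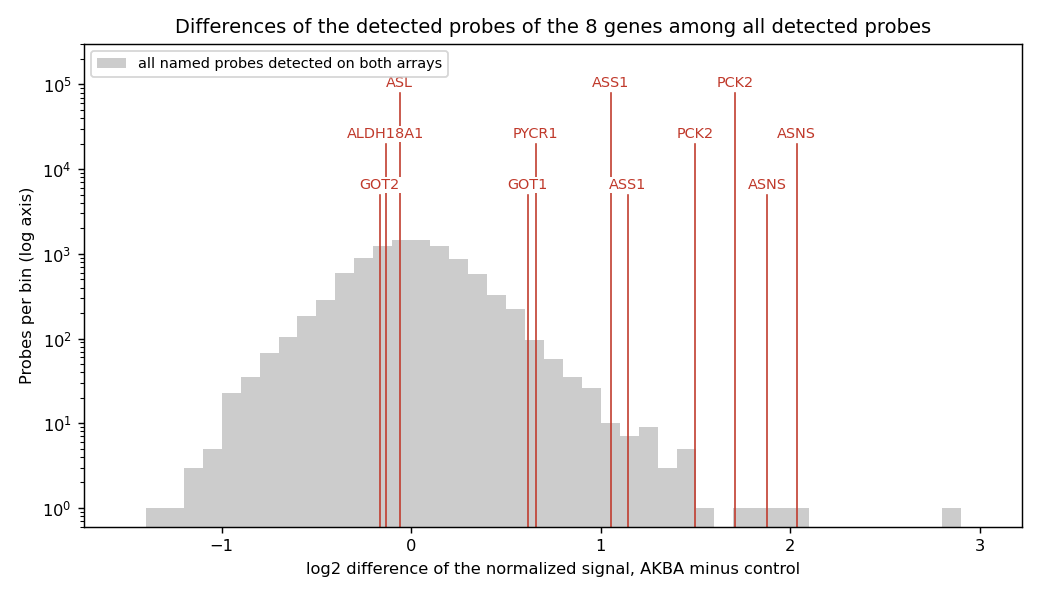
Number of named probes detected on both arrays per bin of 0.1 (grey, log axis) against their log2 difference, AKBA minus control, with a red line for each of the 11 detected probes of the 8 genes. The lines of ASNS, PCK2 and ASS1 lie between 1.05 and 2.03 and those of ASL, ALDH18A1 and GOT2 between -0.17 and -0.06.

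The aspartate transaminases interconvert aspartate and oxaloacetate with glutamate and 2-oxoglutarate, and together with malate dehydrogenases they carry reducing equivalents into mitochondria. GOT1, the cytosolic form, read 2615 on the AKBA array and 2144 on the control array by its probe ILMN_1656145. GOT2, the mitochondrial form, had 3683 on the AKBA array and 5113 on the control array by its probe ILMN_1801348. The signal of GOT1 was thus higher on the AKBA array than on the control array, and that of GOT2 lower. GOT1 was 1.53-fold higher after normalization (log2 difference 0.62) and GOT2 stood at -0.17. The log2 difference of GOT1 was above that of GOT2 by 0.78, and by 0.77 to 0.80 over 6 ways of processing. GOT1 and GOT2 each had 1 named probe, which leaves their values without a check by a further probe.

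For proline, ALDH18A1 encodes the synthase that reduces glutamate to the semialdehyde, and PYCR1 the mitochondrial reductase of the last step. PYCR1 read 880 on the AKBA array and 721 on the control array by its probe ILMN_1796013, 1.58-fold higher after normalization (log2 difference 0.66). Its probes ILMN_1715178 and ILMN_2395092 were detected on neither array, at 118 and 103 (AKBA) and at 113 and 107 (control). ALDH18A1 had 1348 on the AKBA array and 1852 on the control array by its probe ILMN_2302716, with a log2 difference of -0.13. The log2 difference of PYCR1 was above that of ALDH18A1 by 0.79, and by 0.74 to 0.81 over 6 ways of processing. ALDH18A1 had no further named probe and PYCR1 no further detected one, which leaves both values without a check by a further probe. The annotation names the same transcript for the undetected ILMN_2395092 as for ILMN_1796013.

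For ASNS, ASS1 and PCK2, which had more than 1 detected probe, all probes lay on the same side. The log2 differences of the paired probes were 0.16 apart for ASNS, 0.09 for ASS1 and 0.21 for PCK2. For PCK2 the gap widened to 0.44 with an offset of 50 and to 0.54 with no background correction. Over the 1456 named genes with exactly 2 detected probes the median gap was 0.20, and the pooled standard deviation of probes about their gene's mean was 0.23 over 1677 genes. Probes of 1 gene share the RNA, so this is a technical spread that leaves out the spread between cultures. ASS1, GOT2, ASNS and ASL have relatives named as pseudogenes in the RefSeq table, 14, 7, 5 and 1 of them, and a probe may also read transcripts of these. Their part in the signals was not tested.

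**Figure D3:**
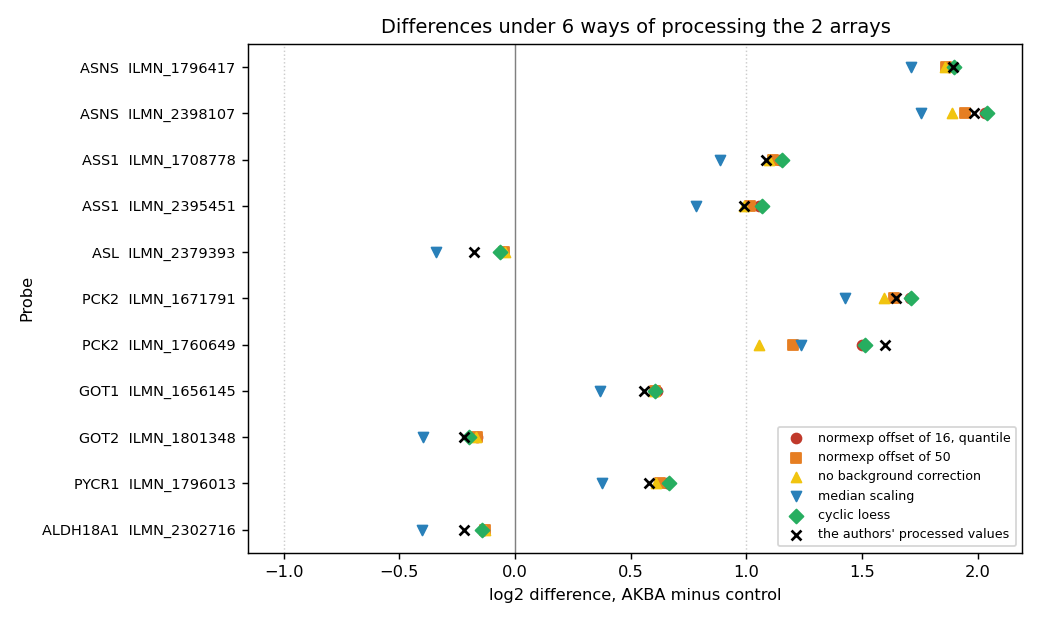
The log2 difference, AKBA minus control, of each of the 11 detected probes under 6 ways of processing, 1 marker per way, with dotted lines at 2-fold. Each probe keeps its sign under all of them, and median scaling gives each probe a lower value than quantile normalization with an offset of 16.

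All 11 probes kept their direction under the alternatives to the background correction and the scaling. Scaling the arrays to equal medians moved the median of all detected probes to -0.28. With median scaling ASS1 stood at 0.89 and 0.78, short of 2-fold, and at 1.17 and 1.06 relative to that median. With median scaling GOT1 and PYCR1 were also short of 1.5-fold, at 0.37 and 0.38, and stood at 0.65 and 0.66 relative to the median. ASL, GOT2 and ALDH18A1 stood at -0.34, -0.40 and -0.40 under the same scaling, and at -0.06, -0.12 and -0.12 relative to the median. With the authors' processed values GOT1 and PYCR1 were just short of 1.5-fold, at 0.56 and 0.58. ASS1 probe ILMN_2395451 stood at 0.99 with those values and with no background correction, just short of 2-fold.

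By the nearness of the log2 difference of the brightest probe, over these 2 arrays, the genes most like ASNS were TRIB3 at 1.98, a pseudokinase that ATF4 induces, PCK2 at 1.71, and LEMD1 at 1.53. Those most like PCK2 were ASNS, LEMD1 and TRIM16L at 1.48. For ASS1 they were C1orf210 at 1.13, IGFL2 at 1.11 and the forkhead transcription factor FOXQ1 at 1.18. C1orf210 had signals of 240.0 (AKBA) and 164 (control), near the lowest detected, so the size of its difference is uncertain. With 1 array per group, likeness rests on a single difference.

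Among further genes of these pathways detected on both arrays, all but ALDH4A1 lay within 1.5-fold, as did most detected genes of the arrays. A list of 40 further genes covered glutamate and glutamine, proline and ornithine, the urea cycle and polyamines, the use of asparagine and aspartate, oxaloacetate and its carriers, and the synthesis of nucleotides and amino sugars. By the brightest probe of each gene, it had 19 genes detected on both arrays, 1 on the control array only, 12 on neither and 8 not analysed here. Of the 20 detected genes, 6 lay above 0 and 14 below, where 46.4% of all 8639 detected genes lay above 0. With median scaling 2 lay above 0 and 18 below, as GLUD1, SLC25A15, CTPS1 and ADSL turned sign. With the authors' processed values 8 lay above 0, as OAZ1 and MDH2 turned sign, and with cyclic loess 7 did, as OAZ1 did so. None was higher by 1.5-fold or more and 1 was lower, where 2.91% and 4.36% of all detected genes were. The counts of the list are near those shares. ARG2, detected on the control array only, was counted at -0.36, although it has a bound only. The median of the list was -0.15 on the log2 scale, against -0.02 for all detected genes.

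The gene past 1.5-fold was ALDH4A1, a mitochondrial dehydrogenase of proline breakdown, which oxidizes the semialdehyde back to glutamate. Its brightest probe read 274 on the AKBA array and 476 on the control array, with a log2 difference of -0.59. That is just past 1.5-fold, and the call ended with an offset of 50 (-0.53), with no background correction (-0.50) and with the mean over the gene's probes. Its other probes did not all share that direction. ILMN_1696099 had 145 (AKBA) and 231 (control), a difference of -0.66, ILMN_2406557 had 144 (AKBA) and 157 (control), a difference of 0.13, and ILMN_2244841 was detected on the control array only. The AKBA signals of ILMN_1696099 and ILMN_2406557 were close to the lowest detected there, and that of ILMN_2244841, at 90.6, was below it.

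OAT, ornithine aminotransferase, joins the proline and arginine routes, and its probes gave log2 differences of -0.19, with signals of 1605 (AKBA) and 2284 (control), and 0.10, with signals of 1334 (AKBA) and 1578 (control). CPS1, the first enzyme of the hepatic urea cycle, was detected on both arrays at 792 (AKBA) and 1132 (control), with a difference of -0.21. The urea cycle genes OTC and ARG1, which hepatocytes express, were detected on neither array, as were the hepatocyte markers ALB and APOA1. GLUD1, glutamate dehydrogenase, had 2951 (AKBA) and 3185 (control) and a difference of 0.21, which turned to -0.03 with median scaling. GLUL, glutamine synthetase, was detected on neither array by its brightest probe, with signals of 120 (AKBA) and 133 (control). ARG2, the mitochondrial arginase and the gene detected on the control array only, had signals of 127 (AKBA) and 168 (control). The control value was at least 1.05-fold above the AKBA value, with the AKBA side set at the lowest signal detected there.

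Within the list, the 5 detected genes of oxaloacetate, malate and their carriers all lay below 0, from -0.44 to -0.02. MDH2 was the exception with the authors' processed values, at 0.02. The lowest was SLC25A12, a mitochondrial aspartate-glutamate carrier, with signals of 297 (AKBA) and 474 (control). Of all detected genes 46.4% lay above 0, and nothing is read from the shared side of these 5 genes. The 6 detected genes of nucleotide and amino sugar synthesis, which use glutamine or aspartate, ranged from -0.26 for CAD to 0.33 for GFPT1. NARS1, which charges transfer RNA with asparagine, the product of ASNS, stood at 0.26 with signals of 4661 (AKBA) and 4787 (control). SLC25A15, CTPS1, ADSL, OAZ1, MDH2, SLC25A12, CAD, GFPT1, NARS1 and ARG2 were named after their values were seen. Where a signal is lower on the AKBA array and the difference is positive, the sign comes from the normalization of the dimmer array. By the brightest probes this holds for GLUD1, SLC25A15, NARS1, GFPT1, CTPS1 and ADSL, which are all the genes of the list above 0. Of these, SLC25A15 and GFPT1 each had a further detected probe, at -0.12 for SLC25A15, the other side of 0, and 0.24 for GFPT1.

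**Figure D4:**
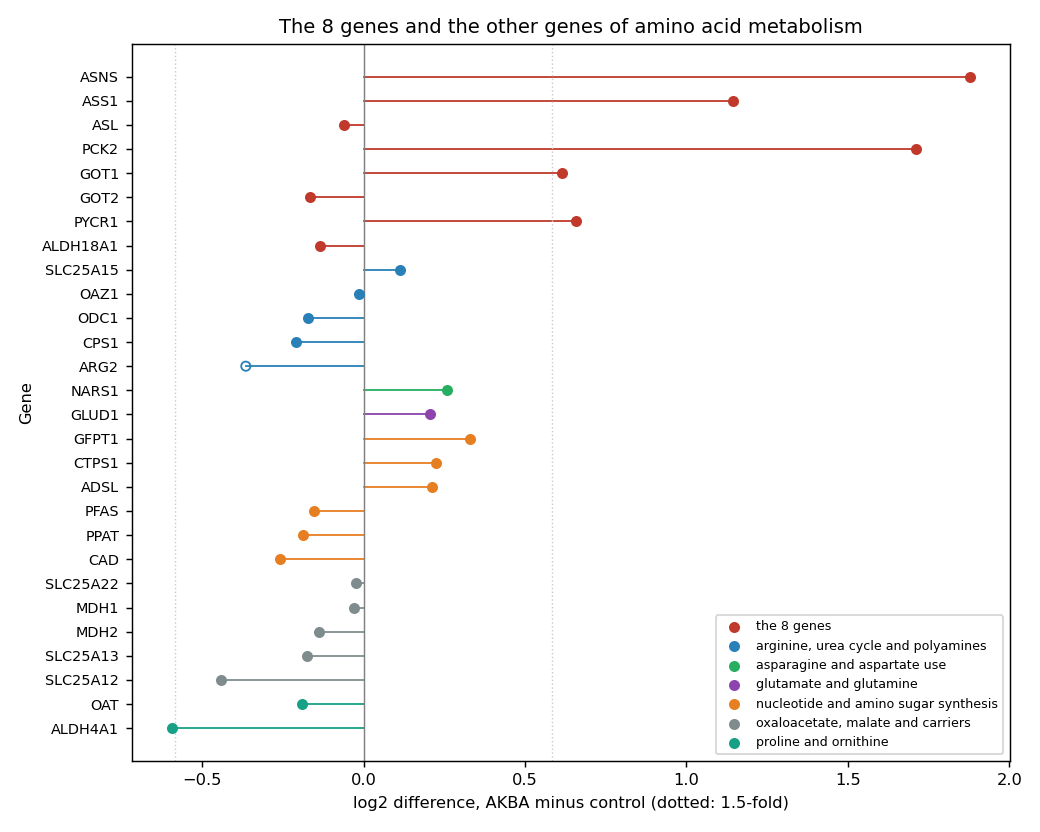
The log2 difference, AKBA minus control, of the brightest probe of the 8 genes (red, top) and of the 20 detected genes of the further list, coloured by role. The open circle is ARG2, detected on the control array only, and dotted lines mark 1.5-fold. Among the further genes, ALDH4A1 alone passes a dotted line, at -0.59, under the processing drawn.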

How the data were processed

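Per the labels' protocols, column-purified total RNA was amplified to labelled cRNA for Illumina arrays. The signal intensity that the authors deposited for each probe still holds its background and was not scaled, judging from its values. Its software is not given in the sources read here. Beside each signal the authors deposited a detection p-value, in steps that fit 759 negative controls. The series' value table, in which the authors deposited processed intensity values, is linear in those signals (slope 1.20 on the AKBA array and 1.00 on the control array, medians 7.63 and 6.50).

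All 48803 probes were normalized by neqc (limma 3.58.1, R 4.3.3; background from the detection p, normexp with an offset of 16, quantiles, log2). Further steps used Python 3.11.15 with numpy 2.4.6, pandas 2.3.3 and matplotlib 3.10.9. By the platform's annotation, 28098 probes had 1 gene name, 13 had several and 20692 had none. Of the probes with 1 name, 28059 were matched by gene identifier to the RefSeq table of GRCh38.p14 and took its symbol. Probes with no name or several were left out. The limit of detection was a detection p under 0.01 on an array. With 1 array per group, no test was made, features were counted at 2-fold and 1.5-fold, and the number of arrays limits the precision.

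The members, the list of 40 further genes, the cell type markers and the motifs were chosen with earlier results of these data known. Named genes were all members with every probe, genes of the list detected on both arrays past 1.5-fold, PCK1, GLUL, GLUD1, OAT and CPS1, and the 3 genes nearest in difference to ASNS, PCK2 and ASS1. The alternatives were an offset of 50, no background correction, median scaling, cyclic loess, the authors' processed values (floor of 16), detection limits of 0.05 and 0.001, and a gene's mean over its detected probes. No filter on detection, and for the further list only genes detected on both arrays, were alternatives added after seeing the data. Some genes of the rule and the list are not reported here. The procedure was tested on simulated data.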

Additional observations from a re-analysis of the deposited data

How the results depend on the processing

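A value was taken as moved where it shifted by more than 0.23 on the log2 scale, the pooled standard deviation between probes of 1 gene, and a count where it shifted by more than 1.5 times. Of 151 values under 10 alternatives, 130 stayed within these limits, 21 moved and 0 reversed. Most moves came from median scaling, which put the median of all detected probes at -0.28 and that of the member probes at 0.78. It gave 1.75 for ASNS probe ILMN_2398107, 0.89 and 0.78 for ASS1, 1.43 and 1.24 for PCK2, 0.37 for GOT1, 0.38 for PYCR1, -0.34 for ASL, -0.40 for GOT2 and -0.40 for ALDH18A1. PCK2 probe ILMN_1760649, dim on the control array, also moved to 1.20 with an offset of 50 and 1.05 with no background correction. The member median was 0.66 at a detection p under 0.05 and 0.66 with no filter on detection, an alternative chosen after seeing the data, since undetected probes then enter. The count of member probes at least 2-fold higher ranged from 4 with median scaling to 7 at a detection p under 0.05 or with no filter. Genes of the further list lower by 1.5-fold or more, 1 in the main processing, were 4 at a detection p under 0.05 and 3 with median scaling, and 0 with an offset of 50, with no background correction or with the mean over probes. ASNS stayed at rank 3, PCK2 at 4 or 5 and ASS1 between 13 and 23. Over all detected probes, 60.2% of those past 2-fold were higher, against 13.2% with median scaling (31 higher, 204 lower) and 29.1% with the authors' processed values (68 and 166), where the main counts were 59 and 39. An offset of 50 gave 29 and 6 (82.9%), and no background correction 22 and 3 (88.0%). Folds of probes near the lowest detected signal are limited by signal over background. No paired analysis was possible because each group has 1 array.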
